A study of Rattus norvegicus with 8 samples.

Results

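Calcium buffers and calmodulin kinases were examined in cultured sensory neurons of the rat through 8 genes read by 10 array probes, out of 15154 genes and 30367 probes on the array. The genes are Calb1, Calb2 and Pvalb, which encode the buffers calbindin, calretinin and parvalbumin, and Camk4, Camk2a, Camk2b, Camk2d and Camk2g, which encode calcium/calmodulin-dependent kinases. Every probe whose RefSeq accession belongs to one of these genes was taken. All 10 passed the filter on dim probes, that of Camk2a through a single group, as described below. The set was put together with earlier values of the same comparisons in view, where Calb2 and Camk4 had stood out. The differences of its members between the groups are therefore given as a description, with standard errors or 95% intervals, and no test is drawn on for them.

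The cultures came from dissociated dorsal root ganglia of newborn Wistar rats aged 0 to 5 days, with cells of both sexes pooled, in serum-free medium with the antimitotic 5-fluoro-2′-deoxyuridine. After 2 to 3 days in vitro every culture was given a protein of human sequence, at 100 ng/ml and for 5 days. It was the P61S/R100E double mutant in 3 samples, the P61S single mutant in 3 and the wild type in 2. Both mutants carry P61S, and untreated cultures were not analysed here. Whether replicates are separate cultures or animals is not stated in the labels, so a standard error covers the spread between these samples alone, which may be technical.

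All 8 arrays lay on 1 slide, and polyadenylated RNA of the whole culture was measured in 1 colour. Their 75th percentile signals ran from 3267 to 5269, no spot was saturated (0 on every array), and the share of spots well above background was 78.7% to 88.8%. Wild type replicate 2 had correlations of 0.983 to 0.989 across probes with the other arrays, while all pairs without it lay between 0.990 and 0.996. Of the pan-neuronal markers 17 of 17 tested were well above background on each array, as were 13 of 13 markers of small-diameter neurons and 16 of 17 of large-diameter neurons. Markers of satellite glia (10 of 11), Schwann cells (10 of 11), fibroblasts (12 of 12), macrophages (11 of 11) and endothelial and mural cells (7 of 9) were above background too.

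Calcium that enters a neuron through channels is bound within moments by EF-hand proteins. Calbindin, calretinin and parvalbumin act mainly as buffers that shape the size and length of the signal, whereas calmodulin passes it on by binding and switching on enzymes. Among these enzymes the CaMKII holoenzyme, assembled from alpha, beta, delta and gamma subunits, phosphorylates itself and stays active after calcium has fallen. CaMKIV, the Camk4 product, works largely in the nucleus, needs phosphorylation by CaMKK and acts on the transcription factor CREB. In dorsal root ganglia the buffers label subsets of neurons: parvalbumin marks proprioceptors, and calretinin and calbindin mark separate, partly large-diameter groups.

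Promoter windows from 250 bases before to 50 bases after the annotated gene start were read from RefSeq (build GRCr8) for 6 of the 8 genes, all but Calb1 and Calb2. The window of Camk4 is shown because Camk4 was the kinase gene whose arrays separated, and that of Camk2g because its arrays did not. Capitals mark matches to TGACG, the core of the site that CREB binds, or to CANNTG, the E-box of basic helix-loop-helix factors. Both motifs were searched on both strands.
Camk4, chr18:24856902-24857201, + strand: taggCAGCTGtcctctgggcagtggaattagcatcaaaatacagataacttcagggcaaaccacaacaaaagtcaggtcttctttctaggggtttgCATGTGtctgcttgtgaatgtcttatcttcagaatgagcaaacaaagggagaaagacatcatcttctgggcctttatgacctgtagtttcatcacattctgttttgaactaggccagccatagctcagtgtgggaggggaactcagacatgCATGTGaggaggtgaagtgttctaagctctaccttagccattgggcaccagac
Camk2g, chr15:3553106-3553405, + strand: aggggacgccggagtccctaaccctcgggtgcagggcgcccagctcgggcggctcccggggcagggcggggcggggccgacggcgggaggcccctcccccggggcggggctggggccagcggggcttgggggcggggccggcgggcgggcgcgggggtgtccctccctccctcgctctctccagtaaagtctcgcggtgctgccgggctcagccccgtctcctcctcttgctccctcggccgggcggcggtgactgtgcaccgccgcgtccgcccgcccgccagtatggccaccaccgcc
The Camk4 window held 3 CANNTG matches (CAGCTG and CATGTG at 2 places) and 0 TGACG matches, and the Camk2g window held 0 of either. TGACG occurred in 21.2% of 33469 windows of this length, and CANNTG in 72.1%. TGACG was present 2 times in the Camk2a window and 1 time in the Pvalb window, while Camk2b and Camk2d had 0 matches to both motifs. CANNTG was present 3 times in the Pvalb window, as in that of Camk4, and 2 times in the Camk2a window. A relation between these motifs and the separation of the arrays was not tested. The full palindrome TGACGTCA, found in 1.83% of all windows, was in 0 of the 6. The 6 windows differed in base composition: GC content was 81.3% for Camk2b, 80.0% for Camk2g, 74.7% for Camk2d, 61.3% for Camk2a, 60.7% for Pvalb and 45.7% for Camk4. The median window had 51.7%, so Camk4 was the one of the 6 below it.

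Calretinin RNA showed the clearest separation among the 3 buffers. Signals below are a percentage of the array's 75th percentile signal, unless a log2 value is named, and they can be compared between arrays for 1 probe but not between probes. Calb2 (probe A_64_P144968) was at 43.8%, 47.8% and 49.9% in P61S/R100E replicates 1 to 3, against 77.4%, 74.4% and 76.0% in P61S replicates 1 to 3. In the 2 wild type arrays it stood at 75.3% and 76.9%. All 3 double mutant arrays lay below all 5 others, with a gap of 24.6 percentage points, and the P61S and wild type arrays overlapped within a range of 74.4% to 77.4%. The group means were 47.1% ± 3.08 for P61S/R100E, 75.9% ± 1.45 for P61S (SD, n = 3 each) and 76.1% ± 1.12 for wild type (SD, n = 2).

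On the log2 scale Calb2 differed by -0.69 between P61S/R100E and P61S (SE 0.0795), a 1.61-fold lower signal, and by -0.69 between P61S/R100E and wild type (SE 0.0889), 1.62-fold lower. These comparisons share the double mutant arrays. Between P61S and wild type the difference was -0.003 (SE 0.0889), with a 95% interval from -0.21 to 0.21. The 2 spots of the Calb2 probe differed by a median of 0.04 log2 units on an array and by 0.18 at most, which covers the measurement within an array only. In bulk RNA, fewer calretinin cells and less Calb2 RNA per cell cannot be told apart.

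Calbindin RNA leaned the same way with more spread. Calb1 (probe A_44_P236255) was at 7.54%, 9.09% and 6.05% in P61S/R100E replicates 1 to 3, against 9.07%, 11.2% and 9.37% in P61S. The wild type arrays were at 10.6% and 11.8%. The double mutant arrays lay below both wild type arrays, but replicate 2 was within the P61S range, at 9.09% beside the lowest P61S array at 9.07%. Calb1 differed by -0.40 (SE 0.165) between P61S/R100E and P61S and by -0.59 (SE 0.184) between P61S/R100E and wild type. Without P61S/R100E replicate 2 the first difference was -0.54, and without replicate 3 it was -0.25. P61S and wild type differed by -0.19 (SE 0.184).

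Parvalbumin RNA, the proprioceptor buffer, did not separate the groups. Pvalb (probe A_64_P008416) was at 9.60%, 10.67% and 9.51% in P61S/R100E, at 10.3%, 13.4% and 10.3% in P61S and at 10.3% and 10.9% in wild type. One array, P61S replicate 2, stood above the rest, and the others lay between 9.51% and 10.9%. The log2 difference was -0.18 (SE 0.123) between P61S/R100E and P61S, with a 95% interval from -0.47 to 0.11. It was -0.10 (SE 0.138) between P61S/R100E and wild type. Without P61S replicate 2 the first of these was -0.06.

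**Figure D1:**
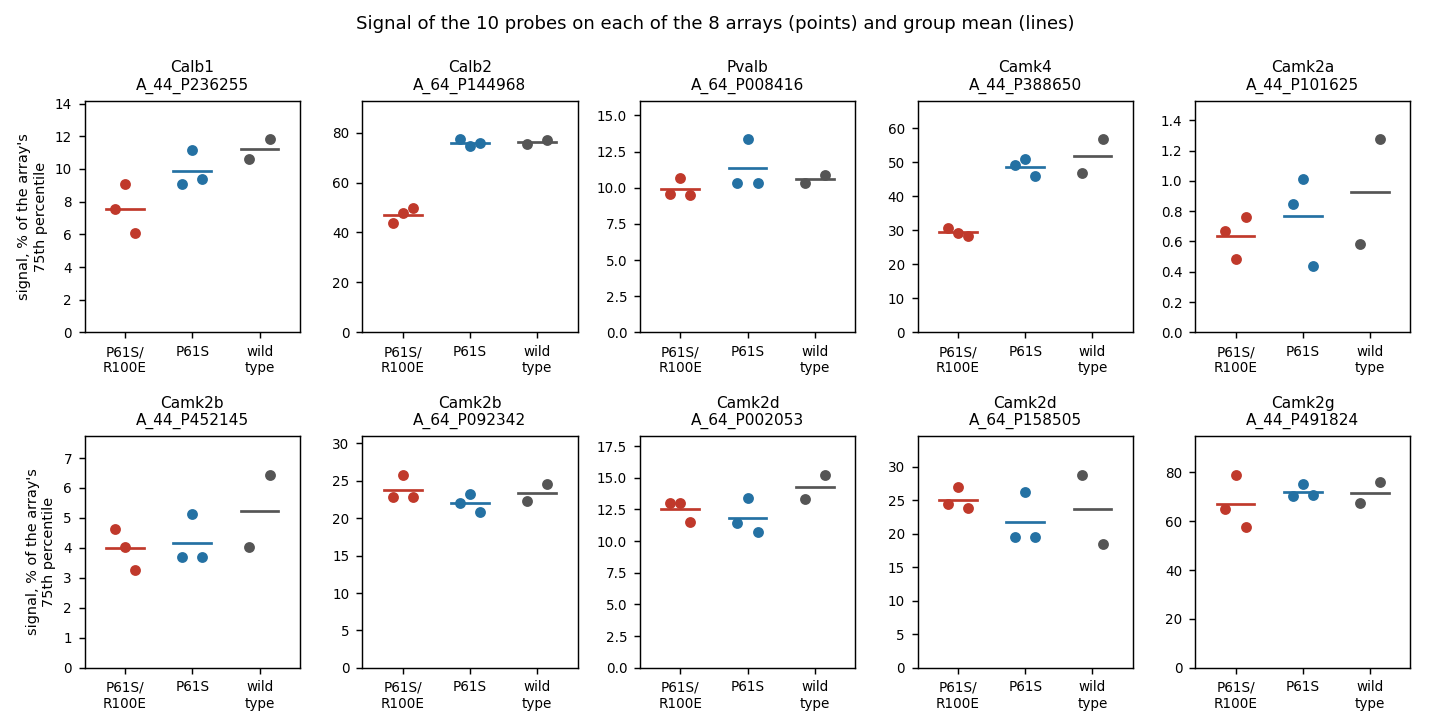
Signal of each of the 10 probes as a percentage of the array's 75th percentile (vertical axis, from 0, scaled per panel) on P61S/R100E, P61S and wild type arrays, with a point per array and a line at the group mean. The 3 P61S/R100E arrays lie below the other 5 for Calb2 (43.8% to 49.9% against 74.4% to 77.4%) and Camk4 (28.4% to 30.8% against 45.9% to 56.8%), and overlap with them for the other probes.

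Camk4 RNA, which encodes the nuclear kinase CaMKIV, had the largest differences of the 10 probes in both comparisons with P61S/R100E. Camk4 (probe A_44_P388650) was at 30.8%, 29.2% and 28.4% in P61S/R100E replicates 1 to 3, against 49.4%, 51.0% and 45.9% in P61S. In wild type replicates 1 and 2 it was at 46.8% and 56.8%. The 3 double mutant arrays were again below the 5 others, and the gap was 15.1 percentage points. P61S and wild type overlapped, and the highest array was wild type replicate 2, the one with the lowest correlations across probes. Group means were 29.5% ± 1.22 for P61S/R100E, 48.8% ± 2.59 for P61S (SD, n = 3 each) and 51.8% ± 7.05 for wild type (SD, n = 2).

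Camk4 differed by -0.73 (SE 0.0997) between P61S/R100E and P61S, 1.65-fold lower, and by -0.81 (SE 0.111) between P61S/R100E and wild type, 1.75-fold lower. Without wild type replicate 2 the comparison with wild type gave -0.67, and without wild type replicate 1 it gave -0.95. Its 2 spots differed by at most 0.07 log2 units on any array. P61S and wild type differed by -0.08 (SE 0.111), with a 95% interval from -0.35 to 0.18.

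Calb2 and Camk4 split the arrays in the same way, into the 3 with the double mutant and the 5 without it. A correlation over such clusters only restates the split, so none is given. Within the double mutant arrays the orders were opposite: replicate 1 had the lowest Calb2 (log2 -1.19) and the highest Camk4 (-1.70), and replicate 3 the highest Calb2 (-1.004) and the lowest Camk4 (-1.82).

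**Figure D2:**
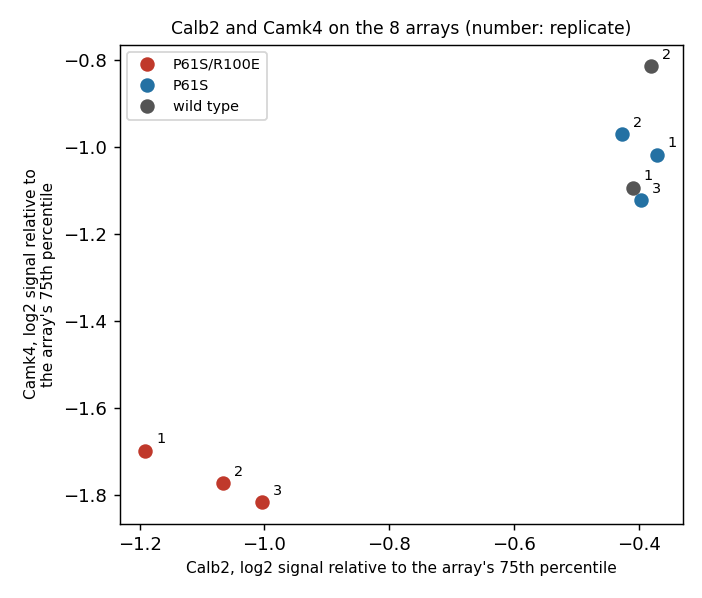
Signal of Calb2, as log2 of its ratio to the array's 75th percentile (horizontal axis), and of Camk4 (vertical axis), a point per array, coloured by group and numbered by replicate. The P61S/R100E arrays lie at -1.191 to -1.004 for Calb2 and -1.82 to -1.70 for Camk4, apart from the 5 other arrays, which lie together.

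The CaMKII subunit genes gave no common direction. Camk2g, the gamma subunit gene (probe A_44_P491824), was at 64.9%, 79.1% and 57.6% in P61S/R100E, at 70.3%, 75.4% and 70.5% in P61S and at 67.3% and 76.0% in wild type. The double mutant arrays held both the highest and the lowest value, so the groups overlapped. Camk2g differed by -0.11 (SE 0.13) between P61S/R100E and P61S and by 0.01 (SE 0.145) between P61S and wild type.

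Camk2d, the delta subunit gene, was read by a pair of probes for the same transcript accession, and they did not follow each other (r = 0.19 over 8 arrays). Probe A_64_P158505 was at 24.4%, 27.0% and 23.8% in P61S/R100E, at 19.5%, 26.2% and 19.5% in P61S and at 28.8% and 18.5% in wild type. The 2 wild type arrays were thus the highest and the lowest of all 8. Probe A_64_P002053, which has a single spot, ran from 11.5% to 13.03% in P61S/R100E, from 10.71% to 13.4% in P61S and from 13.3% to 15.3% in wild type. Between P61S/R100E and wild type the first probe gave 0.11 (SE 0.216) and the second -0.19 (SE 0.131), where the 3 double mutant arrays lay below both wild type arrays.

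Camk2b, the beta subunit gene, had probes for separate transcript accessions. Probe A_64_P092342 ran from 22.8% to 25.8% in P61S/R100E, from 20.8% to 23.2% in P61S and from 22.3% to 24.6% in wild type, the narrowest range of the 10 probes (0.31 log2 units over 8 arrays). It differed by 0.11 (SE 0.0926) between P61S/R100E and P61S and by 0.02 (SE 0.104) between P61S/R100E and wild type. Probe A_44_P452145 was dimmer, at 3.28% to 4.64% in P61S/R100E, 3.69% to 5.15% in P61S and 4.03% to 6.45% in wild type. It gave -0.06 (SE 0.232) and -0.37 (SE 0.259) in the same order of comparisons.

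Camk2a, the alpha subunit gene best known from forebrain, was near background. Its probe A_44_P101625 was at 0.666%, 0.487% and 0.76% in P61S/R100E, at 0.85%, 1.015% and 0.441% in P61S and at 0.582% and 1.28% in wild type. P61S/R100E replicate 2 and P61S replicate 3 were not well above background. The probe thus passed the filter through wild type alone, where its mean was highest (0.928%, against 0.638% in P61S/R100E and 0.769% in P61S). Such a filter favours values lower than wild type, so this probe's differences from wild type carry no weight. The differences of -0.21 (SE 0.405) from P61S and -0.46 (SE 0.453) from wild type had 95% intervals that reached from -1.17 to 0.75 and from -1.53 to 0.62, so a difference of either sign lay within them.

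Across the set, 7 of 10 probes were lower and 3 higher with P61S/R100E than with P61S, at a median log2 difference of -0.15 beside -0.02 over all tested probes. The median of the 10 was -0.28 against wild type, beside -0.06 over all probes, and -0.10 for P61S against wild type, beside -0.04. The count and the medians include Camk2a, lower in each comparison, which passed the filter through wild type alone. For 2 of 10 probes (Calb2 and Camk4) all P61S/R100E arrays lay below all P61S arrays, which held for 8.23% of all tested probes. For 4 of 10 (Calb1, Calb2, Camk4 and the single-spot Camk2d probe) they lay below both wild type arrays, as for 9.20% of all probes. Between P61S and wild type 0 of 10 probes separated, beside 16.6% of all probes in either direction. Because the set was chosen on these comparisons, these shares describe it and carry no further weight.

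**Figure D3:**
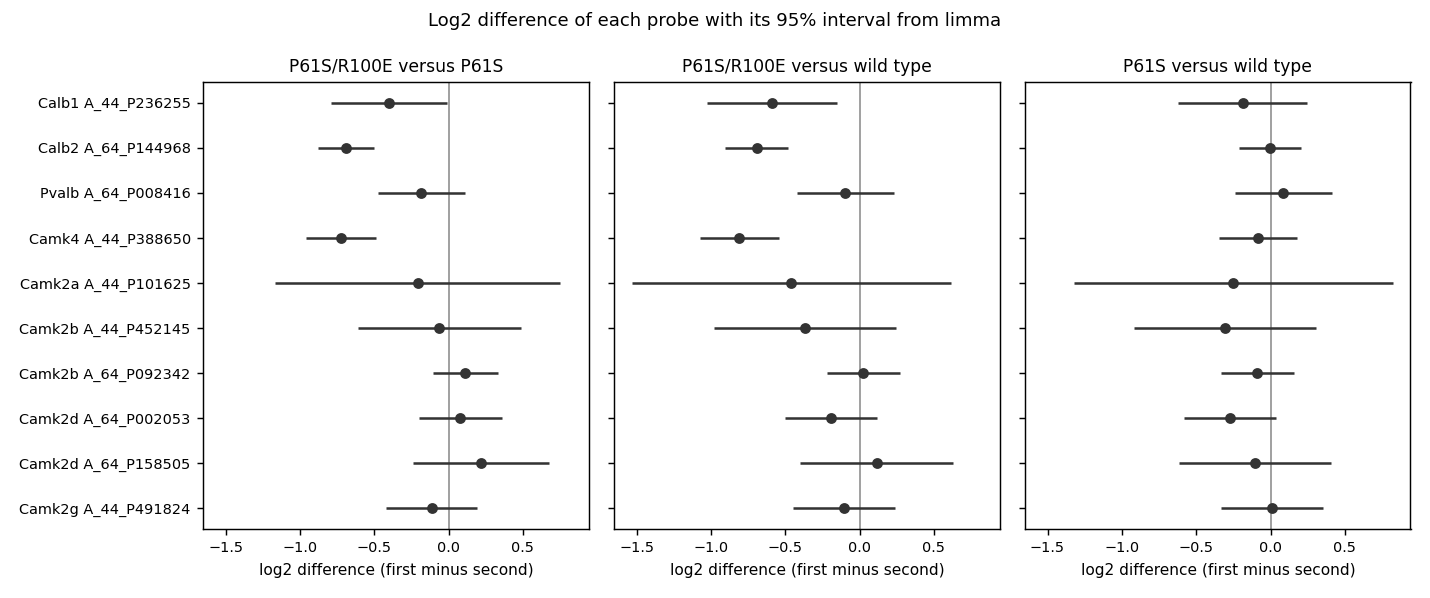
Log2 difference of each probe (points) with its 95% interval from the limma fit (lines) for P61S/R100E versus P61S, P61S/R100E versus wild type and P61S versus wild type, the group named first minus the other. Calb2 lies at -0.69 in both comparisons of P61S/R100E and at -0.003 for P61S versus wild type, and the Camk2a interval is the widest.

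The limma test over 23585 probes, with Benjamini-Hochberg adjustment at 0.05, called 0 probes (0%) in each of the 3 comparisons. Nothing is read from this for the 10 probes, which were chosen on the same comparisons. The smallest adjusted p over all probes was 0.068 for P61S/R100E versus P61S, 0.054 for P61S/R100E versus wild type and 0.29 for P61S versus wild type. Before adjustment, 946 probes (4.01%), 1188 probes (5.04%) and 489 probes (2.07%) had a p under 0.05 in that order.

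Position on the slide moved with the groups. Slide column 4 held the 2 wild type arrays and nothing else, so column and protein cannot be told apart in comparisons with wild type. Column 2 alone held arrays of 2 groups: there P61S/R100E replicate 2 minus P61S replicate 2 gave -0.64 for Calb2, -0.80 for Camk4 and -0.30 for Calb1. Within slide rows 1 and 2 the difference between P61S/R100E and P61S was -0.79 and -0.64 for Calb2 and -0.70 and -0.67 for Camk4. Against wild type the same rows gave -0.78 and -0.66 for Calb2 and -0.60 and -0.98 for Camk4. With the row as a block, the differences from P61S were -0.71 (SE 0.0867) for Calb2 and -0.72 (SE 0.114) for Camk4.

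Parvalbumin cells, and many calretinin cells, are large-diameter neurons. Summed over 17 other markers of these neurons, the signal was 13.04 to 13.81 times the array's 75th percentile in P61S/R100E, 12.87 to 13.02 times in P61S and 12.59 to 12.67 times in wild type. The sums, which weigh the brightest probes most, were highest with P61S/R100E, but its lowest, 13.04, was close to the highest of P61S, 13.02. Summed over 13 markers of small-diameter neurons, it was 138.5 to 149.1, 134.6 to 166.7 and 141.6 to 146.7 times in that order of groups. The 17 pan-neuronal markers summed to 193.2 to 206.7, 178.9 to 207.1 and 190.6 to 217.2 times. limma called 0 genes of these 3 lists, and their median log2 differences between P61S/R100E and P61S were 0.05, -0.10 and 0.00. Single markers spread more widely. Between these groups the small-diameter list ran from -0.76 to 0.46 and the pan-neuronal list from -0.39 to 0.35, beside -0.69 for Calb2. Between P61S/R100E and wild type the small-diameter list ran from -1.13 to 0.60. At an unadjusted p under 0.05, 1 of the 13 small-diameter markers was higher with P61S/R100E than with P61S and 4 were lower. In the pan-neuronal and large-diameter lists 1 of 17 each was higher and 0 lower, where 4.01% of all probes had such a p. Their part in the Calb2 and Camk4 values was not tested. Nefh, the heavy neurofilament gene of large-diameter neurons, picked for its role after its value was seen, differed by 0.00 (SE 0.189) between P61S/R100E and P61S. It does not stand for its list, where the 17 differences ran from -0.32 to 1.29. The medians of the satellite glia, Schwann cell, fibroblast, macrophage and endothelial and mural lists were 0.00, -0.02, 0.07, 0.05 and -0.12 between the same groups, and limma called 0 of their genes.

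The wider calcium machinery was read from 4 lists of genes chosen by function, of which 129 genes were tested through their brightest probe. limma called 0 higher and 0 lower among the 129 in each comparison, with smallest adjusted p-values of 0.9995 for P61S/R100E versus P61S, 0.7456 for P61S/R100E versus wild type and 0.9989 for P61S versus wild type. At an unadjusted p under 0.05 there were 4 genes (3 higher, 1 lower; 3.101%), 12 genes (4 higher, 8 lower; 9.30%) and 2 genes (both lower; 1.55%) in that order, beside 4.01%, 5.04% and 2.07% of all probes. Their median log2 differences were 0.01, -0.03 and -0.06, beside -0.02, -0.06 and -0.04 over all probes.

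The calmodulin genes Calm2 and Calm3 differed by -0.03 (SE 0.104) and 0.00 (SE 0.102) between P61S/R100E and P61S, less than their standard errors. Camkk1 and Camkk2, the kinases that phosphorylate CaMKIV, differed by -0.11 (SE 0.158) and -0.26 (SE 0.191). Camk2n1, a protein inhibitor of CaMKII, differed by 0.22 (SE 0.139), and Creb1, the CREB gene, by 0.23 (SE 0.135). These 6 were picked for their role, with their values known, and limma called none of them at an adjusted p of 0.05 (0.9995 each). Creb1 was at the upper end of its list of 18 genes, which ran from -0.18 to 0.23 with a median of -0.03.

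Among the 29 tested genes of the calmodulin system (median 0.05 between P61S/R100E and P61S, -0.01 between P61S/R100E and wild type) those with the smallest p-values included Pcp4, Rcan2, Camk1, Calml4 and Camk2n2. Pcp4 encodes PEP-19, a small calmodulin-binding protein, and was at log2 -1.22 ± 0.06 with P61S/R100E, against -1.69 ± 0.33 in P61S (SD, n = 3 each), a difference of 0.47 (SE 0.167). From wild type it differed by 0.59 (SE 0.187). Rcan2, an inhibitor of the calmodulin-dependent phosphatase calcineurin, gave -0.20 (SE 0.0936) and -0.39 (SE 0.105) in the same order. Camk1, another calmodulin kinase, was at -0.29 (SE 0.149) against P61S. Against wild type the calmodulin-like gene Calml4 was at 0.79 (SE 0.239) and the CaMKII inhibitor gene Camk2n2 at -0.67 (SE 0.247). A second Calml4 probe gave 0.50. For P61S against wild type, Calml4 was at 0.50 (SE 0.239) by the first probe and 0.15 (SE 0.115) by the second, Rcan2 at -0.19 (SE 0.105) and Pcp4l1, a relative of Pcp4, at 0.23 (SE 0.13).

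The 42 genes of other EF-hand buffers and sensors had medians of 0.00 against P61S and -0.03 against wild type. Nucb1, a calcium-binding protein of the Golgi, was at 1.01 ± 0.16 with P61S/R100E, against 1.33 ± 0.08 in P61S (SD, n = 3 each), a difference of -0.32 (SE 0.123), and at -0.37 (SE 0.137) against wild type. A second Nucb1 probe gave -0.29 (SE 0.301) and -0.72 (SE 0.337). Kcnip1, a calcium-sensing subunit of Kv4 potassium channels, differed by 0.31 (SE 0.155) from P61S, and by 0.26 (SE 0.27) with its second probe. Guca1a, an activator of retinal guanylate cyclase, differed by -0.82 (SE 0.404) from P61S. The Guca1a probe was near background, well above it on 1 of 3 P61S/R100E arrays and 2 of 3 P61S arrays, so its value is uncertain. Vsnl1, the neuronal sensor visinin-like protein, differed by 0.57 (SE 0.223) from wild type. Scgn, which encodes the buffer secretagogin, differed by -0.01 (SE 0.154) between P61S/R100E and P61S, and by 0.35 (SE 0.172) between P61S and wild type, as Kcnip4 did by -0.25 (SE 0.137).

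Pumps, exchangers and store proteins, 40 genes, had medians of 0.03 against P61S and -0.06 against wild type, and -0.13 for P61S against wild type. Atp2b1, a plasma membrane calcium pump, was at 2.06 ± 0.01 with P61S/R100E, against 1.87 ± 0.08 in P61S (SD, n = 3 each), a difference of 0.19 (SE 0.075). Its second probe gave 0.21. Casq2, the calsequestrin of muscle stores, differed by 0.61 (SE 0.256) from P61S. Against wild type the store pump gene Atp2a3 differed by 0.32 (SE 0.0971) with P61S/R100E and by 0.21 (SE 0.0971) with P61S. The IP3 receptor gene Itpr2 was at -0.40 (SE 0.138) in P61S against wild type.

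Of the 18 tested kinase substrates and CREB partners (medians -0.03 against P61S and -0.02 against wild type), Dlg4, the postsynaptic scaffold PSD-95, had the smallest p-values in both comparisons with wild type. It was at -0.83 (SE 0.236) for P61S/R100E and -0.98 (SE 0.236) for P61S, each against wild type, and these values share the wild type arrays.

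**Figure D4:**
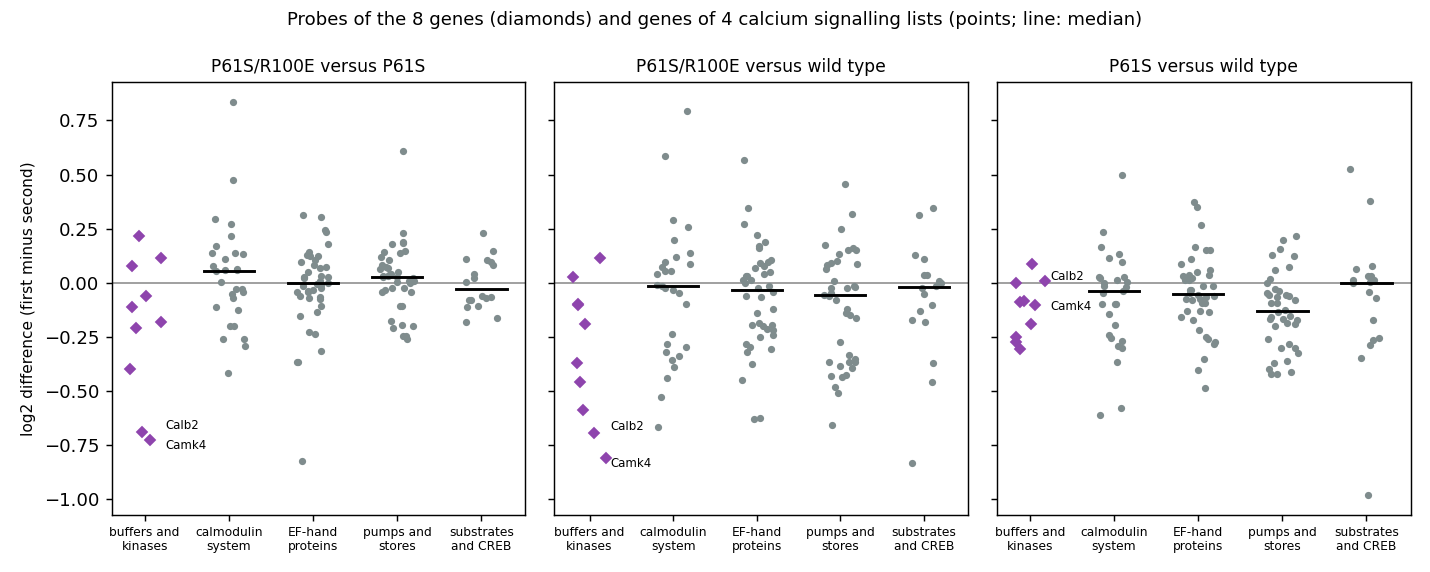
Log2 difference (vertical axis) of the 10 probes of the 8 genes (diamonds) and of the tested genes of 4 calcium signalling lists (points, line at the median) for each comparison, the group named first minus the other. Calb2 (-0.69 and -0.69) and Camk4 (-0.73 and -0.81) lie near the lower end in both comparisons of P61S/R100E, while the list medians lie between -0.06 and 0.05 there.

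Genes whose signal followed a member most closely over the 8 arrays were looked up among 7219 probes with a gene name and a range of at least 0.5 log2 units. The correlations are descriptive, since the points share arrays and, for Calb2 and Camk4, fall into the clusters already described. Closest to Calb2 were Cldn3, a tight junction claudin (r = 0.991), Lrat, the retinol-esterifying enzyme (0.985), and Sting1, a sensor adaptor of innate immunity (0.983). Closest to Camk4 were Marchf11, a ubiquitin ligase (0.976), Dock1, an activator of Rac (0.973), and Stard4, a cholesterol carrier (0.972). Calb1 was followed by the secreted glycoprotein gene Stc1 (0.987), by MGC116197 (0.984) and by the neuronal pentraxin gene Nptx2 (0.974). Pvalb was followed by Egln3, an oxygen-sensing prolyl hydroxylase (0.988), by the sodium/proton exchanger gene Slc9a5 (0.979) and by P4ha2, a collagen prolyl hydroxylase subunit (0.972).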

How the data were processed

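The scanner files hold spot intensity, background-subtracted and detrended by the authors with Feature Extraction 10.7.3.1 (protocol GE1_107_Sep09, array design 028279, build rn4), per the file headers. Log2 of the processed signal minus the array's log2 75th percentile was computed here from the 58717 spots per array that were not controls. Outlier spots were left out and spots of a probe averaged. Tested were the 23585 probes whose spots all exceeded background clearly on each array of 1 or more groups. Probes were named through RefSeq accessions. The deposited table of log2 values (22018 probes, medians 9.82 to 10.3, not normalized between arrays) correlated at 0.999 or more with the scanner signals, held 9 of the 10 probes and served as an alternative.

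One limma 3.58.1 fit (R 4.3.3) held 8 arrays and 3 group means, with 5 residual degrees of freedom and a prior worth 1.93. The number of arrays limits the precision. Named were every probe of the 8 genes, the 4 calcium signalling genes with the smallest p in each direction per comparison, and the 3 genes most correlated with each member. Calm2, Calm3, Camkk1, Camkk2, Camk2n1, Creb1 and Nefh were added for their role after their values were seen. Members and lists were chosen with earlier results of these data known. In the normexp alternative the spot median replaced the mean, which the files lack. The fit did not pair samples by replicate number. Correlations of same-numbered deviations (-0.198 to 0.167) cannot decide whether the numbers pair them, because the deviations of 2 wild type arrays mirror each other. Figures were drawn with matplotlib 3.10.9. The name of the protein is not reported here.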

Additional observations from a re-analysis of the deposited data

How the results depend on the processing

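Calb2 and Camk4 stayed lower with P61S/R100E than with P61S in each of 22 alternatives (Calb2 from -0.79 to -0.64, Camk4 from -0.80 to -0.67), and lower than wild type in each of 21 (-0.78 to -0.61 and -0.98 to -0.60). Calb1 kept its direction in all of them as well. The 22 and 21 alternatives, and the 218 and 208 values below, include settings that cannot move a difference. These were the changes of filter, the fit of the 2 groups compared, the variance trend and the removal of arrays outside the comparison. The replicate block likewise left P61S/R100E versus P61S unchanged, at -0.69 for Calb2 and -0.73 for Camk4. Such settings say nothing about how stable a difference is. Over the 10 probes, 9 of 218 alternative values changed sign for P61S/R100E versus P61S, 16 of 208 for P61S/R100E versus wild type and 28 of 208 for P61S versus wild type. For P61S/R100E versus P61S, limma called 1 probe on the deposited values, 1 with a filter on all 8 arrays and 6 with a variance trend and robust hyperparameters. Against wild type it called 1 probe each for P61S/R100E with normexp, quantile normalization, the deposited values, the filter on all 8 arrays and the variance trend, and 1 each for P61S with normexp and quantile normalization. Without each array in turn the calls ran from 0 to 3, from 0 to 1244 and from 0 to 250 in that order of comparisons. The upper ends against wild type, 1244 and 250, came from dropping wild type replicate 1. The remaining wild type array is the one with the low correlations, and it is assumed to vary like the other groups. Across left-out arrays 0 to 11 calcium signalling genes were called for P61S/R100E against wild type, the 11 in that same fit. Without P61S replicate 2 the calls were 3, 2 and 1, and without wild type replicate 2 they were 0, 1 and 1. The replicate block left 0 calls in each comparison. The low signal of Camk2a limits its values, which changed sign in 2 of 20 alternatives against P61S and 3 of 19 against wild type. The 20 and 19 too include settings that cannot move a difference.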

Other observations

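Genes closest to the CaMKII subunit genes were looked up among the same 7219 probes, by the brightest probe of each subunit gene. With 8 arrays and so many candidates these correlations are descriptive, and differing names carry no weight. Closest to Camk2g were the sugar transporter gene Slc45a3 (r = 0.951), Rad51d, a recombination repair gene (0.946), and Gtpbp2 (0.944). Closest to the brighter Camk2d probe were Hoxb4, a homeobox gene (0.972), Celf3, an RNA-binding protein gene (0.94), and Ensa (0.928). The brighter Camk2b probe was followed by the lipid kinase gene Pip5k1a (0.956), Dapl1 (0.955) and the neuropeptide Y receptor gene Npy5r (0.94). That probe ranged over only 0.31 log2 units. The dim Camk2a probe was followed by the potassium channel gene Kcnf1 (0.978), the GABA transporter gene Slc6a11 (0.959) and Kiaa1328 (0.957). Its 2 spots differed by up to 1.3 log2 units on an array. The dimmer Camk2b probe and the single-spot Camk2d probe had r = 0.876 with each other, above the 0.456 and 0.189 of the probe pairs within Camk2b and within Camk2d.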
